A study of Mus musculus with 8 samples.

Results

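Of the 27179 genes counted in 4 mouse mammary tumour cell lines, 9 were examined here because they encode hormone receptors or transcription factors that mark the lineages of the mammary epithelium. They were found by their symbols and comprise the receptors Esr1, Pgr and Prlr, the luminal factors Gata3, Foxa1, Elf5 and Ehf, and the SOX-family factors Sox9 and Sox10. The study sequenced RNA of the cell lines 4T1.2, 4T1, 66cl4 (written with the digit 1 in the sample labels) and 67NR, with 2 replicates of each described as biological, and the question asked here was what mammary identity remained in each line. The lines are of BALB/c origin and are described as isogenic, and 4T1.2 is a clone of 4T1. No treatment of a line and no engineered genetic change between the groups is described, and genotypes were not measured here. The study set 4T1 and 4T1.2 apart from 66cl4 and 67NR as the more metastatic pair. Each line is a single established culture, so a difference between lines belongs to these cultures. The p-values rest on the spread between 2 preparations of a line, with 1 estimate per gene shared by all 4 lines.

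In the mammary gland an inner layer of luminal cells is surrounded by basal, myoepithelial cells, and oestrogen and progesterone act on the luminal cells that carry the receptors ESR1 and PGR. GATA3 and FOXA1 maintain the luminal fate and open chromatin for the oestrogen receptor. Prolactin acts through its receptor PRLR, the kinase JAK2 and the factor STAT5, together with the ETS-family factor ELF5, to direct milk production, while EHF is another epithelial ETS factor and SOX9 and SOX10 have been tied to progenitor states of the gland.

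Total counts ranged from 37159840 to 66269681 per library, and 4 of the 9 genes (Esr1, Gata3, Foxa1 and Sox9) passed the filter on low counts and were tested among 13923 genes. The other 5 (Pgr, Prlr, Elf5, Ehf and Sox10) never exceeded 3 counts in a library. Levels are given as CPM, read counts scaled for library size. A count of 0 was given a limit of 3 counts, which covers counting error only and corresponded to 0.0486 to 0.0819 CPM. Of 6 leucocyte markers, Ptprc, Cd3e and Adgre1 had at most 3 counts in every library, and the list's summed level was 17.8 to 21.8 CPM in 66cl4 and 22.5 to 22.7 CPM in 67NR, with at most 0.194 CPM in 4T1.2 and at most 0.173 CPM in 4T1. Only Lyz2 of them was tested, and it was lower in the 4T1 pair. Lyz2, a lysozyme gene of myeloid cells, had 980 and 791 counts in 66cl4 and 831 and 1387 in 67NR against at most 4 in each 4T1.2 or 4T1 library, and its part in the results was not tested. Of 4 endothelial markers 2 were tested and both were higher in the 4T1 pair, and the list's summed level was at most 3.69 CPM in any library. None of 3 adipocyte markers could be tested. Of 4 fibroblast markers 3 were tested, with 1 higher and 2 lower in the 4T1 pair. Among all genes tested, 38.1% were higher and 38.6% lower in that pair. Pdgfra, a fibroblast receptor gene, was counted in all 4 lines, at means of 86.5 to 162 CPM.

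Before their expression levels are given, a promoter window is shown for 3 of the genes: Foxa1, which was counted in only 2 of the lines, Gata3, which was counted in all, and Pgr, which was counted in none. Each window runs from 250 bases before to 50 bases after a transcript start in RefSeq's promoter table for GRCm38, and the 3 windows lie within the gene spans given later rather than at their outer ends. They are written 5′ to 3′ on the gene's strand with CG dinucleotides, the targets of DNA methylation, in capitals.
Foxa1, chr12:57546062-57546361, minus strand: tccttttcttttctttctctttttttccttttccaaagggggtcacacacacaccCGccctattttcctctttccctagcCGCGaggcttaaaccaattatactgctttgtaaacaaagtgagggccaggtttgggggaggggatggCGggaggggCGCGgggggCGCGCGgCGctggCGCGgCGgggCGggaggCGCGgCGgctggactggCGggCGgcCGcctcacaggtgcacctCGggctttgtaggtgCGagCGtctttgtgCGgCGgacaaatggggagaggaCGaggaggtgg
Gata3, chr2:9878551-9878850, minus strand: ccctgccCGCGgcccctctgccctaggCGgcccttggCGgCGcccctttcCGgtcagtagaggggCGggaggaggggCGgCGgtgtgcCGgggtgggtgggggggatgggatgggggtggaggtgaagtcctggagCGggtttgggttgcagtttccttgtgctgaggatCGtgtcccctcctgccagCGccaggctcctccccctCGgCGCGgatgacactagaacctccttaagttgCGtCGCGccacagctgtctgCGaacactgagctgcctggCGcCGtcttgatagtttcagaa
Pgr, chr9:8899583-8899882, plus strand: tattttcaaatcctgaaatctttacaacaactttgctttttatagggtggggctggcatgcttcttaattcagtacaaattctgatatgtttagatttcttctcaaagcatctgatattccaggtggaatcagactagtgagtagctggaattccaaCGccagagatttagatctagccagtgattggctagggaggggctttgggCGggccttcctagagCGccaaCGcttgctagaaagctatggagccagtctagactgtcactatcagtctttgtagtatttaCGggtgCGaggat

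The Foxa1 window held 26 CG dinucleotides, a number reached by 16.9% of the 32851 windows of the same length. The Gata3 window held 22, reached by 23.1% of windows, and the Pgr window held 6, reached by 56.4%, against a median of 7 over all windows. RefSeq windows were matched for 6 of the 9 genes. On both strands, 4 motifs were searched, none of which contains another. The oestrogen response element, GGTCA and TGACC set 3 bases apart, was not found in any window of these genes and occurred in 0.0700% of all windows. The forkhead motif TGTTTAC was found in the Foxa1 window, in 1 of the 3 Prlr windows and in 3.65% of all windows, the SOX motif ACAATGG in 1 of the Elf5 windows and in 3.66% of all, and the GATA motif AGATAA in no window of these genes and in 11.2% of all. These are matches of letters only, and nothing measured here bears on binding or methylation at these sites.

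Esr1, which encodes oestrogen receptor alpha, was expressed in all 4 lines and was lower in 4T1.2 and 4T1 than in 66cl4 and 67NR. The gene (Entrez 13982) lies on chromosome 10 at 4611989 to 5005633 (GRCm38). Its levels were 6.16 and 5.75 CPM in 4T1.2, 10.2 and 8.59 CPM in 4T1, 30.6 and 35.8 CPM in 66cl4, and 23.9 and 22.3 CPM in 67NR. With 2 libraries a line, both values are given in place of an SD. No line overlapped another, and the levels fell in the order 66cl4, 67NR, 4T1, 4T1.2. The mean log2 difference of 4T1.2 and 4T1 from 66cl4 and 67NR was -1.89 (SE 0.093, edgeR's quasi-likelihood test, Benjamini-Hochberg adjusted p = 3.85e-08). In bulk RNA, fewer cells that express a gene and less RNA in each cell cannot be told apart.

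Esr1 was also lower in 4T1.2 than in 4T1 (log2 difference -0.66, SE 0.134, edgeR adjusted p = 0.00773), and higher in 66cl4 than in 67NR, by 0.53 (SE 0.12, edgeR adjusted p = 0.007). Each neighbouring pair of lines in the order therefore differed past the threshold of 0.05. These within-pair calls depended on single libraries: without replicate 2 of 4T1.2 the first had an edgeR adjusted p of 0.0572, and without replicate 2 of 66cl4 or of 67NR the second had edgeR adjusted p-values of 0.0567 and 0.0678. Across the pairs, the difference of 4T1.2 from 66cl4 was the widest for this gene at -2.48 (SE 0.134, edgeR adjusted p = 1.28e-07) and that of 4T1 from 67NR the narrowest at -1.29 (SE 0.129, edgeR adjusted p = 1.3e-05).

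The other 2 hormone receptor genes of the set were close to undetected. Pgr, the progesterone receptor gene (Entrez 18667, chromosome 9, 8898900 to 8968611), had 0 counts in all 8 libraries. Prlr, the prolactin receptor gene (Entrez 19116, chromosome 15, 10177238 to 10349190), had 3 counts in replicate 2 of 67NR and 0 in the other 7 libraries. Of these receptors, then, Esr1 alone was detected above the 3-count limit in any line, and lower levels of the others were not detectable at this depth. The nearest downstream neighbours of the 2 genes, chosen by position after these values were seen, differed from each other: Arhgap42, 23895 bases from Pgr, averaged 103, 79.6, 32.1 and 35.5 CPM in 4T1.2, 4T1, 66cl4 and 67NR, whereas Agxt2, 9325 bases from Prlr, had 0 counts throughout.

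**Figure D1:**
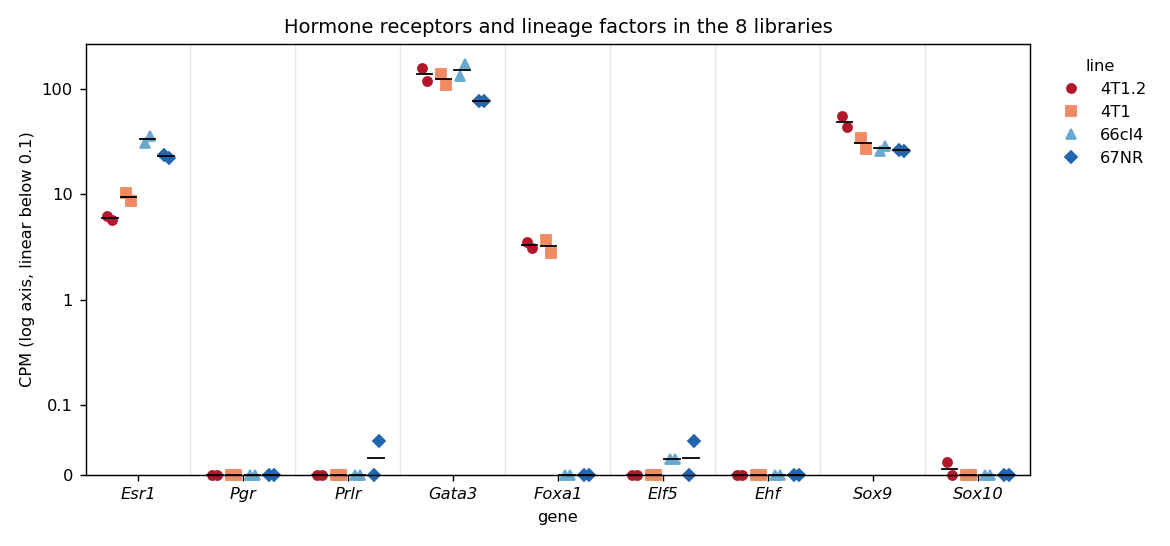
CPM of the 9 genes in each of the 8 libraries (vertical axis, logarithmic above 0.1 and linear below), with a symbol per library, a colour per line and a bar at the mean of 2 replicates. Esr1, Gata3 and Sox9 are present in every library, Foxa1 is at 0 in 66cl4 and 67NR, and the other 5 genes lie at or near 0.

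Among 14 other nuclear and peptide hormone receptor genes, 11 were tested, and 8 were lower, 1 higher and 2 not past the threshold in 4T1.2 and 4T1 against 66cl4 and 67NR. Their median log2 difference was -0.85, against -0.01 over all genes tested, of which 38.1% were higher and 38.6% lower. In these list counts, higher or lower in the 4T1 pair refers to the mean of 4T1.2 and 4T1 against that of 66cl4 and 67NR, and single lines of a pair can depart from it. Nr3c2, the mineralocorticoid receptor gene, had means of 0.326 CPM in both 4T1.2 and 4T1 and of 10.1 and 12.6 CPM in 66cl4 and 67NR. Thrb, a thyroid hormone receptor gene, had 0 and 3 counts in 4T1.2 and none in 4T1, whereas 66cl4 had 1010 and 919 and 67NR had 1365 and 2172. Ghr, the growth hormone receptor gene and a relative of Prlr, stood at means of 13.2, 35.5, 73.5 and 43.1 CPM in 4T1.2, 4T1, 66cl4 and 67NR, with a log2 difference of -1.38 between the pairs (SE 0.077, edgeR adjusted p = 1.06e-07). All 3 were lower in the 4T1 pair, and Ghr, like Esr1, was lowest in 4T1.2 and highest in 66cl4.

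Esr2, which encodes oestrogen receptor beta, ran the other way. It had 45 and 43 counts in 4T1.2, 67 and 39 counts in 4T1, 0 and 1 counts in 66cl4, and 6 and 8 counts in 67NR (log2 difference between the pairs 4.30, SE 0.357, edgeR adjusted p = 2.16e-06). Calcr, the calcitonin receptor gene, had 0 counts in every library. Between 66cl4 and 67NR, 6 of the 11 receptors were higher in 66cl4 and 2 lower, with a median of 0.53, while between 4T1.2 and 4T1 1 was higher, Vdr for vitamin D, and 1 lower, Ghr. The shares over all genes tested were 22.3% higher and 22.4% lower in 66cl4, and 9.37% higher and 9.93% lower in 4T1.2.

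Of 13 genes that oestrogen and progesterone are known to induce, 8 were tested, and 4 were higher, 3 lower and 1 not past the threshold in 4T1.2 and 4T1, with a median of 0.27. The shares over all genes tested were 38.1% higher and 38.6% lower. Greb1, a target and partner of oestrogen receptor alpha, had 4 and 1 counts in 4T1.2, 1 and 0 counts in 4T1, 121 and 114 counts in 66cl4, and 9 and 17 counts in 67NR. Greb1 was thus highest in the line in which Esr1 was highest, and its log2 difference between 66cl4 and 67NR was 3.30 (SE 0.306, edgeR adjusted p = 2.55e-05), against 0.53 for Esr1. Wnt4, a progesterone-induced signal, was also lower in the mean of the 4T1 pair, at no more than 8 counts in any of its 4 libraries while 66cl4 had 30 and 20 and 67NR had 5 and 15. Against 67NR alone, Wnt4 did not pass the threshold in 4T1.2 (log2 difference -1.315, edgeR adjusted p = 0.097) or in 4T1 (-0.94, edgeR adjusted p = 0.204).

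Other response genes followed different orders. Myb, Cited1, Xbp1 and Id4 were higher in the 4T1 pair. Areg, the EGF-family ligand amphiregulin, had means of 32.7, 28.9, 24.4 and 46.5 CPM in 4T1.2, 4T1, 66cl4 and 67NR and did not pass the threshold between the pairs (edgeR adjusted p = 0.218). Ccnd1, the cyclin D1 gene, stood at 2418 to 3576 CPM in all lines and differed by -0.23 on the log2 scale between the pairs (SE 0.077, edgeR adjusted p = 0.0218). Tff3, Agr2 and Calcr were at 0 everywhere, and Tff1 and Tnfsf11, the latter encoding RANK ligand, had at most 3 counts in any library.

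Coregulators of the oestrogen receptor were present in every line. Of 9 genes tested, 7 were lower in the mean of 4T1.2 and 4T1, with a median of -0.54, and Ncoa3 and Nrip1 did not pass the threshold, where 38.6% of all genes tested were lower. Against 67NR alone fewer were lower. In 4T1.2, 4 were lower, 2 higher (Ncoa3 and Nrip1) and 3 not past the threshold, and in 4T1, 5 were lower and 4 not past it. In these comparisons 67.9% and 68.2% of all genes tested passed the threshold in either direction. The p160 coactivator gene Ncoa1 had means of 17.1, 10.7, 41.2 and 31.6 CPM in 4T1.2, 4T1, 66cl4 and 67NR, and the coactivator gene Ncoa2 had 46.0, 47.8, 101 and 87.3 CPM. Within the pairs, 3 coregulators (Ncoa1, Ncoa3 and Tle3) were higher in 4T1.2 than in 4T1, where Esr1 was lower, and 2 (Ncor1 and Tle3) were higher in 66cl4 than in 67NR. Among all genes tested, 9.37% were higher in 4T1.2 than in 4T1 and 22.3% in 66cl4 than in 67NR.

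RNA of genes listed for the intracellular arm of prolactin signalling was present although Prlr did not exceed 3 counts. Which receptors these genes served in the lines was not tested. All 7 genes of the list were tested, and 3 were higher (Jak2, Socs2 and Cish) and 4 lower (Stat5a, Stat5b, Socs1 and Socs3) in the mean of 4T1.2 and 4T1, with a median of -0.37. Among all genes tested, 38.1% were higher and 38.6% lower. Jak2, the kinase bound to the receptor, had means of 522, 383, 201 and 89.2 CPM in 4T1.2, 4T1, 66cl4 and 67NR (log2 difference between the pairs 1.74, SE 0.060, edgeR adjusted p = 2.52e-09). The factor genes Stat5a and Stat5b were lower by smaller amounts, at -0.44 (SE 0.088, edgeR adjusted p = 0.0011) and -0.37 (SE 0.064, edgeR adjusted p = 0.00043). Against 67NR alone neither passed the threshold. Stat5a differed from 67NR by -0.27 in 4T1.2 and -0.09 in 4T1 (edgeR adjusted p = 0.0771 and 0.534). Stat5b differed by 0.11 and -0.04 (edgeR adjusted p = 0.291 and 0.692). Cish, a STAT5-induced feedback inhibitor, had 53 and 68 counts in 66cl4 and 0 in both 67NR libraries, and 35 to 79 counts in the 4T1.2 and 4T1 libraries. Taken against the 3-count limit, Cish was at least 16.4-fold lower in 67NR than in 66cl4. Against 66cl4 alone, Cish was lower in 4T1.2 (log2 difference -1.002, SE 0.254, edgeR adjusted p = 0.00683) and differed by -0.12 in 4T1 (edgeR adjusted p = 0.658), so its higher mean in the 4T1 pair rests on the 0 counts of 67NR. Socs2 in 4T1.2 differed from 66cl4 by -0.02 (edgeR adjusted p = 0.878). Between 66cl4 and 67NR, 6 of the 7 genes were higher in 66cl4 and Socs1 was lower, where 22.3% of all genes tested were higher and 22.4% lower.

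Of 9 milk protein genes, the classical products of ELF5- and STAT5-driven alveolar cells, 7 had at most 3 counts in any library, among them Csn2, Wap and Lalba. The other 2 were both higher in the 4T1 pair, as were 38.1% of all genes tested. Csn3, which encodes kappa-casein, had 4792 and 5347 counts in 4T1.2 and 10480 and 11070 in 4T1, whereas 66cl4 had 3 and 2 and 67NR had 2 and 19. It was lower in 4T1.2 than 4T1 (log2 difference -1.20, SE 0.188, edgeR adjusted p = 0.00198). Mfge8, a milk fat globule protein gene that other tissues also express, had means of 1151, 1007, 221 and 206 CPM in 4T1.2, 4T1, 66cl4 and 67NR. Csn3 was thus counted in lines that had 0 counts of Prlr, Elf5 and the beta-casein gene Csn2.

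**Figure D2:**
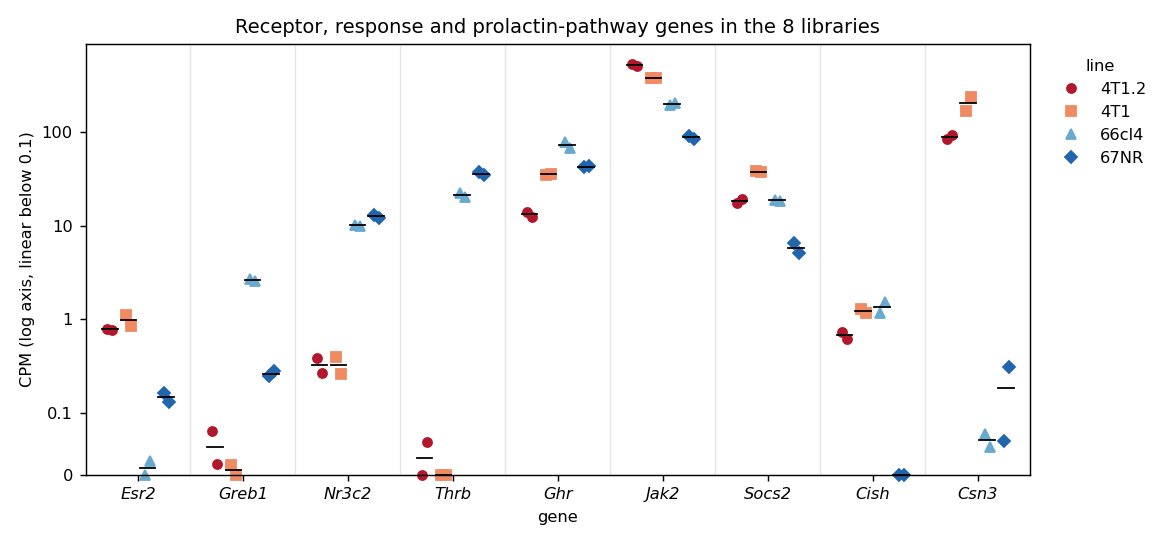
CPM of receptor, response and prolactin-pathway genes in each of the 8 libraries (vertical axis, logarithmic above 0.1 and linear below), with a symbol per library, a colour per line and a bar at the mean of 2 replicates. Greb1, Nr3c2 and Thrb are higher in 66cl4 and 67NR, Esr2, Jak2 and Csn3 are higher in 4T1.2 and 4T1, and Cish is at 0 in 67NR.

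Gata3, the zinc-finger factor that specifies luminal cells, was expressed in every library and was lowest in 67NR. The gene (Entrez 14462) lies on chromosome 2 at 9857078 to 9887953. Its levels were 160.2 and 120.7 CPM in 4T1.2, 139 and 108 CPM in 4T1, 134 and 172 CPM in 66cl4, and 77.6 and 76.5 CPM in 67NR. The 3 other lines overlapped one another, and both 67NR libraries lay below all of them. Between the pairs the log2 difference was 0.28 (SE 0.118), which missed the threshold (edgeR adjusted p = 0.0515).

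Against 67NR, Gata3 was higher in 66cl4 by 0.99 (SE 0.169, edgeR adjusted p = 0.00114), in 4T1.2 by 0.87 (SE 0.169, edgeR adjusted p = 0.00123) and in 4T1 by 0.68 (SE 0.168, edgeR adjusted p = 0.00488), 3 comparisons that share the 67NR libraries. Among the other 3 lines no difference passed the threshold, with log2 differences of 0.18 for 4T1.2 against 4T1 (edgeR adjusted p = 0.511), -0.12 for 4T1.2 against 66cl4 (edgeR adjusted p = 0.536) and -0.30 for 4T1 against 66cl4 (edgeR adjusted p = 0.13). The pooled difference sits near the threshold and its call changed with single libraries: without replicate 2 of 4T1.2, of 4T1 or of 66cl4, the edgeR adjusted p was 0.0139, 0.00813 and 0.0236. Without replicate 1 of 4T1, the difference of 4T1 from 66cl4 was -0.49 (edgeR adjusted p = 0.0227).

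A small share of Gata3's reads could be assigned to other loci. Its exons overlap those of the opposite-strand gene Gm13256 over 155 bases, 4.12% of its exonic length, and those of the same-strand gene 9230102O04Rik over 77 bases, 2.05%, and the strand setting of the counting is not given in the sources used here. Of the stretches of 75 bases in its transcripts, 0.630% also occurred in those genes.

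Foxa1, the pioneer factor that prepares chromatin for the oestrogen receptor, was detected in the 4T1 pair only. The gene (Entrez 15375, chromosome 12, 57540628 to 57548029) had 201 and 176 counts in 4T1.2, 223 and 127 counts in 4T1, and 0 in each of the 4 libraries of 66cl4 and 67NR. Scaled, these were 3.54 and 3.10 CPM in 4T1.2 and 3.65 and 2.74 CPM in 4T1, and these 2 lines overlapped. Taken against the 3-count limit of the libraries at 0, Foxa1 was at least 39.8-fold higher in the 4T1 pair than in 66cl4 and 67NR (edgeR adjusted p = 2.42e-07). Between 4T1.2 and 4T1 the log2 difference was 0.05 (SE 0.213, edgeR adjusted p = 0.916).

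The pair of lines with Foxa1 RNA had the lower Esr1, and the pair with the higher Esr1 had no Foxa1 count. The nearest gene on the lower-coordinate side, Mipol1 at 83386 bases, was present in all lines at 18.6, 19.7, 13.5 and 13.5 CPM in 4T1.2, 4T1, 66cl4 and 67NR (log2 difference between the pairs 0.51, edgeR adjusted p = 0.000512), so the 0 counts did not extend to it, and Sstr1 on the other side was at 0 in all libraries.

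Elf5 and Ehf, the ETS factors of secretory and epithelial cells, lie side by side on chromosome 2 (Elf5, Entrez 13711, 103412098 to 103450989, and Ehf, Entrez 13661, 103263431 to 103303275), 108822 bases apart. Elf5 had 1 count in each 66cl4 library, 0 and 3 in 67NR and 0 in the 4 libraries of 4T1.2 and 4T1, and Ehf had 0 in all 8. Neither could be tested, and no line was above the 3-count limit for either. The genes flanking them were expressed in every line. Cat, the catalase gene 2914 bases beyond Elf5, had means of 131, 112, 105 and 111 CPM in 4T1.2, 4T1, 66cl4 and 67NR, and Apip, on the far side of Ehf, 26.9, 21.9, 17.2 and 16.8 CPM.

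Of 12 paralogues of the GATA, FOXA and ELF genes, 6 were tested, with 3 higher, 2 lower and 1 not past the threshold in the 4T1 pair and a median of 0.35, counts near the 38.1% higher and 38.6% lower of all genes tested. Gata4, a factor of heart and gut rather than of breast, had 822 and 725 counts in 4T1.2, 659 and 407 counts in 4T1, 3 and 3 counts in 66cl4, and 0 and 1 counts in 67NR. Elf3, an epithelial relative of Elf5 and Ehf, had 758 and 759 counts in 4T1.2 and 794 and 761 in 4T1 against 11 to 33 in 66cl4 and 67NR (log2 difference 4.81, SE 0.140, edgeR adjusted p = 6.92e-10). Both were higher in the 4T1 pair, as Foxa1 was, and among the FOXA paralogues themselves Foxa2 had at most 1 count and Foxa3 at most 10 in any library. Elf1 was higher by 0.69 (SE 0.065), Elf4 lower at -0.71 (SE 0.107) and Gata2 lower at -0.42 (SE 0.102), although Gata2 in 4T1 was higher than in 67NR by 0.44 (edgeR adjusted p = 0.0197).

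Of 15 other luminal and epithelial factor genes, 11 were tested, with 5 higher, 2 lower and 4 not past the threshold in the 4T1 pair and a median of 0.20. The shares over all genes tested were 38.1% higher and 38.6% lower. Tfap2c, an AP-2 factor gene, and Tbx2, a T-box factor gene, were higher as Foxa1 was. Tfap2c had 718 to 1224 counts in the 4T1.2 and 4T1 libraries, 28 and 26 in 66cl4 and 0 and 5 in 67NR, and Tbx2 had 575 to 1344 counts against at most 17. Grhl1, a grainyhead epithelial factor gene, was lower in the 4T1 pair, at 0.141 and 0.112 CPM against 6.18 and 1.92 CPM. Tfap2a, like Gata3, was expressed in all lines, at 59.0, 58.4, 63.5 and 41.3 CPM in 4T1.2, 4T1, 66cl4 and 67NR, missed the threshold between the pairs (log2 difference 0.20, SE 0.109, edgeR adjusted p = 0.123) and was higher in 66cl4 than in 67NR by 0.62 (SE 0.155, edgeR adjusted p = 0.00943). Spdef, Tbx3, Ovol2 and Grhl3 had at most 3 counts in any library. Elf3 and Spdef belong to both of these lists, and Xbp1 and Id4 to more than 1 list.

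Sox9, a factor of luminal progenitors and of cartilage, was expressed in all lines and was highest in 4T1.2. The gene (Entrez 20682, chromosome 11, 112782210 to 112787757) had 55.2 and 43.3 CPM in 4T1.2, 34.6 and 27.1 CPM in 4T1, 25.9 and 29.1 CPM in 66cl4, and 26.4 and 25.8 CPM in 67NR. Both 4T1.2 libraries lay above the other 6, 66cl4 overlapped both 4T1 and 67NR, and 4T1 lay above 67NR. Sox9 was higher in 4T1.2 than in 4T1 by 0.68 (SE 0.147, edgeR adjusted p = 0.0109), a call that was lost without replicate 1 of 4T1.2 (edgeR adjusted p = 0.0896).

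Against the less metastatic lines, Sox9 in 4T1.2 was higher than in 66cl4 by 0.84 (SE 0.148, edgeR adjusted p = 0.000622) and than in 67NR by 0.91 (SE 0.148, edgeR adjusted p = 0.000373). In 4T1 the corresponding differences were 0.17 (SE 0.148, edgeR adjusted p = 0.337) and 0.24 (SE 0.148, edgeR adjusted p = 0.175), and 66cl4 differed from 67NR by 0.07 (SE 0.149, edgeR adjusted p = 0.717). The pooled difference of 0.54 (SE 0.104, edgeR adjusted p = 0.000916) therefore averages a pair whose members themselves differ. Without replicate 2 of 4T1, Sox9 in 4T1 exceeded 67NR by 0.40 (edgeR adjusted p = 0.0284).

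Sox10, a neural crest and mammary progenitor factor (Entrez 20665, chromosome 15, 79154913 to 79164490), had 1 count in replicate 1 of 4T1.2 and 0 in the other 7 libraries. Its neighbour Polr2f, a subunit gene of RNA polymerase II 3138 bases away, had means of 180.1, 193, 38.0 and 45.0 CPM in 4T1.2, 4T1, 66cl4 and 67NR (log2 difference 2.17, edgeR adjusted p = 4.31e-08). RNA of the adjacent gene thus differed between the pairs while Sox10 was at or near 0 in each.

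Of 17 other SOX genes, 9 had at most 3 counts in every library, including Sox2 and Sox11 with none. Among the 6 tested, Sox4, Sox5, Sox15 and Sox21 were higher and Sox12 and Sox13 lower in the 4T1 pair. Their median was 4.16, or 1.63 with genes absent from a group set at their 3-count bound. Among all genes tested, 38.1% were higher and 38.6% lower. Sox4, a factor of epithelial and neural progenitors, had means of 203, 163, 46.7 and 61.3 CPM in 4T1.2, 4T1, 66cl4 and 67NR. Sox15 had 693 and 763 counts in 4T1.2, 2692 and 2329 counts in 4T1, and at most 7 in any 66cl4 or 67NR library. It was lower in 4T1.2 than 4T1 (log2 difference -1.88, SE 0.172, edgeR adjusted p = 9.92e-05), the reverse of Sox9.

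Genes that SOX9 is known to drive in cartilage were scarce. Of 11, 6 were tested, with 1 higher, 4 lower and 1 not past the threshold in the 4T1 pair (median -1.89, or -1.34 with absent genes at their bound). Col2a1, the type II collagen gene and the 1 that was higher, had 71 to 98 counts in the 4T1.2 and 4T1 libraries and 9 to 25 in the others, and between 4T1.2 and 4T1, where Sox9 differed, its log2 difference was -0.20 (SE 0.208, edgeR adjusted p = 0.567). Of 10 genes that SOX10 drives in glia and melanocytes, 6 were tested and 3 were higher in the 4T1 pair (Erbb3, Mbp and Ngfr) and 3 lower, Mitf and S100b among them, with a median of 0.30. Beside both lists, the shares over all genes tested were 38.1% higher and 38.6% lower. Erbb3 in 4T1 was above 66cl4 and 67NR by 2.16 and 1.60 (edgeR adjusted p = 1.73e-05 and 0.000102), while 4T1.2 differed from them by 0.38 and -0.18 (edgeR adjusted p = 0.197 and 0.525). Against 66cl4 alone, Mitf did not pass the threshold in 4T1.2 (log2 difference -0.30, edgeR adjusted p = 0.115) or in 4T1 (-0.095, edgeR adjusted p = 0.598). Nor did S100b in 4T1.2 or 4T1 (edgeR adjusted p = 0.0883 and 0.102). Ngfr, the low-affinity neurotrophin receptor gene, had 6045 and 6091 counts in 4T1.2 and 4150 and 3449 in 4T1, against at most 12 in any other library, in cells with no more than 1 Sox10 count.

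**Figure D3:**
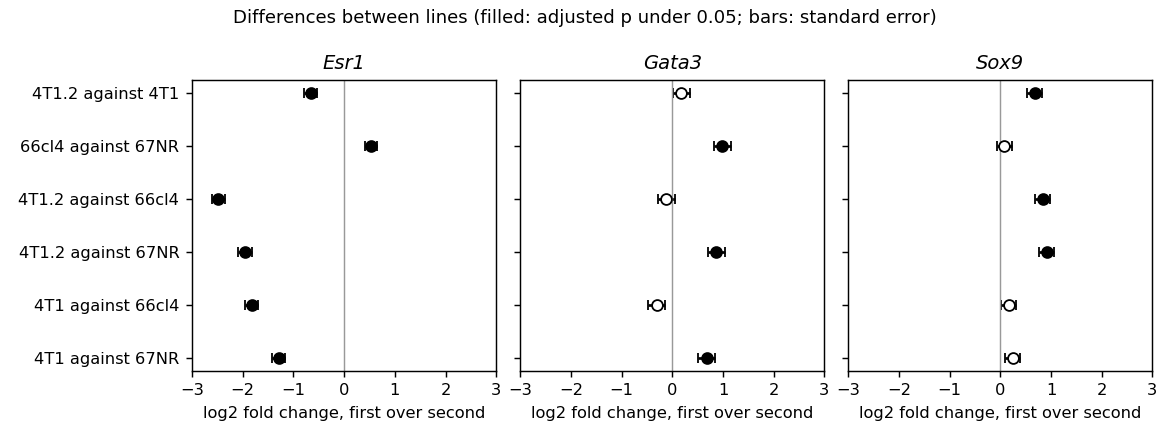
Log2 fold changes of Esr1, Gata3 and Sox9 in the 6 comparisons of single lines (horizontal axis, first line over second), with bars of 1 standard error and filled symbols where the edgeR adjusted p is under 0.05. Esr1 is filled in all 6, Gata3 in the 3 comparisons with 67NR, and Sox9 in the 3 comparisons with 4T1.2.

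Counted over the set, all 4 tested genes differed somewhere among the 4 lines, where 84.8% of all genes tested did. Between the pairs, 3 of 4 passed the threshold (Foxa1 and Sox9 higher and Esr1 lower in the 4T1 pair), against 76.7% of all genes, 38.1% higher and 38.6% lower. Between 4T1.2 and 4T1, 2 of 4 passed (Esr1 lower and Sox9 higher), against 19.3% of all genes, 9.93% lower and 9.37% higher, and between 66cl4 and 67NR, 2 of 4 passed (Esr1 and Gata3 higher), against 44.7%, 22.3% higher and 22.4% lower. Across the pairs, the number that passed was 3 of 4 for 4T1.2 against 66cl4 (68.9% of all genes), 4 of 4 for 4T1.2 against 67NR (67.9%), 2 of 4 for 4T1 against 66cl4 (70.1%) and 3 of 4 for 4T1 against 67NR (68.2%). These comparisons share libraries, and with 4 genes tested the shares cannot be read as different from those of all genes.

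Levels of different genes were compared per kilobase of gene length (RPKM). Gata3 was highest of the 9 in every line, with means of 43.7, 38.5, 47.5 and 24.0 RPKM in 4T1.2, 4T1, 66cl4 and 67NR, and in 66cl4 92.5% of all genes had a lower RPKM. Sox9 followed in 4T1.2, 4T1 and 67NR with 11.9, 7.43 and 6.30 RPKM. In 66cl4, Esr1 at 7.69 RPKM stood above Sox9 at 6.63 RPKM, and in 67NR Esr1 had 5.34 RPKM. In 4T1.2, Esr1 and Foxa1 were near each other, at 1.38 and 1.04 RPKM.

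The tested genes whose profile over the 8 libraries lay closest to each of the 4, by root-mean-square distance of centred log2 CPM, were named as a description only, since libraries of a line share its whole history. Esr1 was nearest to Cited2, Aox1 and Camkk1 (distances 0.128, 0.131 and 0.148), and Gata3 to Arhgap39, Prx and Rai1 (0.105, 0.107 and 0.117). Baiap2l1 and Id4 were among those nearest to Foxa1 (0.127 and 0.175), and Sox9 was nearest to Mdm1, Camk2n2 and Zfp512b (0.103, 0.106 and 0.116). Id4, an inhibitor of helix-loop-helix factors, shared with Foxa1 the 0 counts in all 66cl4 and 67NR libraries. Whole chromosomes also differed between lines. Relative to all genes, the median log2 difference of the genes on Gata3's chromosome 2 was 0.27 in 4T1.2 against 4T1, where Gata3 differed by 0.18. It was 0.225 between the pairs, where Gata3 differed by 0.28, and 0.376 in 4T1.2 against 67NR, where Gata3 differed by 0.87. In 66cl4 and in 4T1 against 67NR it was 0.049 and 0.097, where Gata3 differed by 0.99 and 0.68. The median for Foxa1's chromosome 12 was 0.250 between the pairs. That for Sox9's chromosome 11 was 0.31 between the pairs, where Sox9 differed by 0.54, and -0.01 in 4T1.2 against 4T1, where Sox9 differed by 0.68. The part of chromosome-wide shifts in the results was not tested.

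The markers of the epithelial layers set these factors in context. Krt8, a luminal keratin gene, was abundant in every line at 996, 1432, 604 and 496 CPM in 4T1.2, 4T1, 66cl4 and 67NR, whereas the partner keratin gene Krt18 fell from 582, 1023 and 114 CPM to 0.977 CPM in 67NR. Epcam and Cdh1, which encode epithelial adhesion molecules, had 778 or more and 629 or more counts in the 4T1.2 and 4T1 libraries, and at most 1 and 7 in those of 66cl4 and 67NR. Of 13 luminal markers, 11 were tested and 10 were higher in the 4T1 pair, with a median of 6.17, and Muc1 was lower, where 38.1% of all genes tested were higher and 38.6% lower. Epcam and Cdh1 were thus near 0 in the lines that had the higher Esr1, whereas Krt8 was present there and Cd24a had its highest mean in 66cl4, at 1299 CPM against 1016, 684 and 353 CPM in 4T1.2, 4T1 and 67NR. The list's summed level was 819 to 883 CPM in 67NR, 2008 to 2034 CPM in 66cl4, 2818 to 3281 CPM in 4T1.2 and 3370 to 4255 CPM in 4T1.

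Between 4T1.2 and 4T1, 9 luminal markers were lower in 4T1.2, 1 (Cd24a) was higher and 1 was not past the threshold, with a median of -1.34. The shares over all genes tested were 9.93% lower and 9.37% higher. Epcam and Cdh1 were lower in 4T1.2 at -1.61 (SE 0.146, edgeR adjusted p = 0.000162) and -1.76 (SE 0.140, edgeR adjusted p = 4.4e-05). Csn3, Ghr and Esr1 were lower in the same line, while Gata3 and Foxa1 did not pass the threshold and Sox9 was higher. Kit, a receptor of luminal progenitors, had 0 counts in every library.

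Basal markers were divided. Of 13, 9 were tested, with 3 higher, 4 lower and 2 not past the threshold in the 4T1 pair and a median of 0.17. Among all genes tested, 38.1% were higher and 38.6% lower, shares that apply to the mesenchymal list below as well. Trp63, the p63 gene that defines basal cells, had 6205 and 6155 counts in 66cl4 and 1268 and 1847 in 67NR against 6 to 22 in the 4T1.2 and 4T1 libraries, and Snai2 had 4222 and 4808 in 66cl4 and 2689 and 4216 in 67NR against at most 3. The basal keratin gene Krt5 had at most 9 counts in any library, and Krt14 was higher in the 4T1 pair at no more than 42 counts. Krt17, another basal keratin gene, had 76 and 97 counts in 4T1.2 and 149 and 144 in 4T1. Its counts were at most 1 in any 66cl4 or 67NR library (log2 difference between the pairs 6.87, SE 0.368, edgeR adjusted p = 7.14e-08). Id4, also on this list, was higher in the 4T1 pair as well. Of 10 mesenchymal markers, all tested, 7 were lower and 2 higher (Vim and Snai1) in the 4T1 pair, with a median of -1.04. Zeb1 had means of 0.317 and 0.456 CPM in 4T1.2 and 4T1 against 62.5 and 64.2 CPM in 66cl4 and 67NR. Vim, the vimentin gene, stood at 5452, 5826, 3276 and 1948 CPM in 4T1.2, 4T1, 66cl4 and 67NR.

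**Figure D4:**
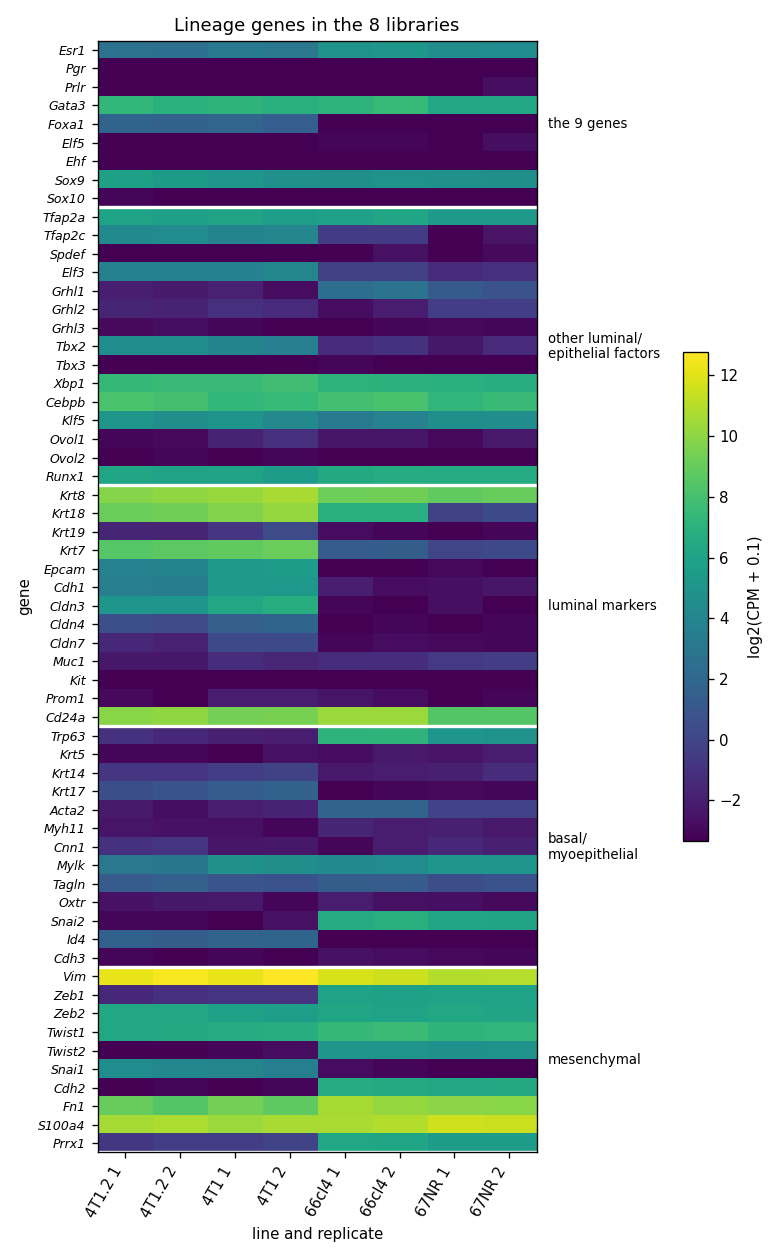
Heat map of log2(CPM + 0.1) in the 8 libraries (columns, by line and replicate) for the 9 genes and for luminal and epithelial factors, luminal markers, basal and myoepithelial markers and mesenchymal markers (rows). Gata3, Sox9, Krt8 and Vim are present in every column, Foxa1, Epcam and Cdh1 in the 4T1.2 and 4T1 columns, and Trp63, Snai2 and Zeb1 in the 66cl4 and 67NR columns.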

How the data were processed

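RNA of the 4 lines was prepared with Illumina's TruSeq RNA v2 protocol. The authors mapped reads to mm10 with Rsubread, counted them per Entrez gene with featureCounts, as the submitters' processing notes also name, and deposited raw read counts for 8 libraries. The strand setting is not given in the sources used here. Each sample's own count file was equal to its column of the series matrix. Symbols were matched for 25275 of 27179 gene identifiers (93.0%) through RefSeq's table for GRCm38, the same assembly as mm10, which also gave positions and promoter windows.

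Ribosomal, predicted and unmatched genes, 5.34% to 7.95% of counts per library, were removed after edgeR's default filter, as in the study, which left 13923 of 15269 genes. A mean per line was fitted to all 8 libraries (TMM scaling, 4 residual degrees of freedom, biological coefficient of variation 9.74%), and edgeR 4.0.16 in R 4.3.3 gave quasi-likelihood F-tests, adjusted by Benjamini-Hochberg over all genes tested, with a threshold of 0.05. The comparison of pairs was the mean of 4T1.2 and 4T1 less the mean of 66cl4 and 67NR on the log2 scale. CPM are counts scaled by the TMM effective library size, RPKM are CPM per kilobase of the deposited gene length, and a count of 0 was given a limit of 3 counts, which covers counting error only. Replicates of a line differed by more than sampling noise. The code was tested on simulated counts. The genes and the 17 gene lists were chosen with earlier results of these data known. All 9 genes are reported, list genes may be named, and for each tested gene the 3 most alike genes are named, except for items that are not reported here. DESeq2 1.42.0 and limma 3.58.1 served for alternatives.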

Additional observations from a re-analysis of the deposited data

How the results depend on the processing

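Each value for the 4 tested genes was recomputed with other scalings, filters, tools and library sets, with 579 values keeping their direction and side of the threshold, 13 losing the call, 9 gaining it and 8 changing sign. Testing for a change beyond 1 on the log2 scale left 0 genes of the set called in 4T1.2 against 4T1 (2 before), 0 in 66cl4 against 67NR (2 before) and 2 in 4T1.2 against 67NR (4 before). It reduced the calls over all genes from 10684 to 3622 between the pairs, from 2687 to 303 in 4T1.2 against 4T1, from 6217 to 1056 in 66cl4 against 67NR, and to 3514, 3431, 3686 and 3406 from 9587, 9450, 9756 and 9497 in 4T1.2 against 66cl4, 4T1.2 against 67NR, 4T1 against 66cl4 and 4T1 against 67NR. A minimum of 10 counts in every library removed Foxa1 and left 1 call in 4T1 against 66cl4 (2 before). Leaving out 1 library gave 1 to 2 calls in the set for 4T1.2 against 4T1 and 1 to 2 for 66cl4 against 67NR. Over all genes, 4T1.2 against 4T1 had 1373 calls without replicate 1 of 4T1.2 and 1428 without its replicate 2, and 66cl4 against 67NR had 4144 without replicate 2 of 67NR.

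The sign changes were in differences not called in the first place. Without 1 library, Gata3 in 4T1.2 against 4T1 ran from -0.0344 to 0.3733, Foxa1 in the same comparison from -0.1366 to 0.2778, Sox9 in 66cl4 against 67NR from -0.0113 to 0.156, Gata3 in 4T1.2 against 66cl4 from -0.3226 to 0.0783, and Sox9 in 4T1 against 66cl4 from -0.0239 to 0.3427. With libraries thinned to 37159840 counts, Foxa1 in 4T1.2 against 4T1 was -0.0257. The cause was not tested. Gata3 between the pairs ranged from 0.18 to 0.38 and passed the threshold in 7 of 20 alternatives, among them DESeq2's size factors (edgeR adjusted p = 0.0437), no filter (0.0281), no removal of genes by annotation (0.0451) and DESeq2's test (0.0277).

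Deviations of same-numbered replicates correlated by -0.123 to 0.27 over the 6 pairs of lines, with the highest value between 4T1.2 and 4T1. In both of these lines Esr1, Gata3, Foxa1 and Sox9 were each higher in replicate 1 than in replicate 2. Whether same-numbered libraries were prepared together is not given in the sources used here, and the main fit treated them as unpaired. With the replicate number as a block, 3 genes of the set were called between the pairs, 2 in 4T1.2 against 4T1 and 2 in 66cl4 against 67NR, and no call of the set changed. With 2 replicates a line, each gene's own spread has 4 residual degrees of freedom, and edgeR's test combines it with the spread of all genes tested.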
